A study of Rattus norvegicus with 6 samples.

Results

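Genes known as markers of adventitial fibroblasts, the matrix-producing cells of the outer layer of an artery, were followed in the thoracic aorta of hypertensive and normotensive rats. The members are a fixed list of 10 symbols, and a gene counted as measured where the platform annotation names it alone on a probe set, a group of short probes that report 1 transcript. By this rule 8 of the 10 were measured, Dpp4, Cd34, Fap, Ly6c, Dpt, Scara5, Gsn and Mfap4, each by 1 probe set, out of 18166 genes named on the array. Pcolce2 and Clec3b were not analysed here. The rule uses names and no measured value, but the list was chosen with earlier results of these data known.

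The groups were 3 arrays from spontaneously hypertensive rats (SHR), inbred for high blood pressure, and 3 from Wistar-Kyoto rats (WKY), a normotensive strain of shared origin. All rats were 24 weeks old and received no treatment. Per the series text, the vessels were stripped of fat and connective tissue before freezing, and the amount of adventitia left on each was not recorded in the labels. Nothing in the labels ties an array to an animal of its own, so p-values rest on a spread among samples that may be technical. Values are log2 levels from the RMA procedure, and the arrays give no call of presence. Values of single arrays are given in the order of replicates 1, 2 and 3. The array medians, from 2.29 to 2.52, serve here as a mark below which a level is not shown to lie above background. Smooth muscle markers lay between 9.71 and 10.12 on the 6 arrays (mean of 5 measured genes), above the array medians. So did the means of 6 general fibroblast markers, between 8.72 and 9.36. These 6 include the collagen genes Col1a1, Col1a2 and Col3a1, and which cells made their RNA was not tested.

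The adventitia holds fibroblasts that make collagen and microfibrils, together with small vessels, nerves and immune cells, and it borders on the fat around the artery. A subset of these fibroblasts, found in many organs and known for the surface proteins CD34, DPP4 and, in mice, Ly6 antigens, is regarded as progenitor-like. Several of the listed genes are not restricted to fibroblasts. CD34 also marks endothelium and haematopoietic progenitors, gelsolin is made by smooth muscle, and MFAP4 is made by smooth muscle as well.

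Promoter sequence was found for 5 of the 8 measured genes in the RefSeq table of build GRCr8, which gives 1 start site a gene. The 250 bases before the start site are shown for Cd34, Dpt and Gsn, the bright genes whose levels moved together among the SHR arrays and which had an entry. Each runs 5′ to 3′ on the strand of the gene, and capitals mark a match to a searched motif.
Cd34, chr13:109008536-109008785, + strand: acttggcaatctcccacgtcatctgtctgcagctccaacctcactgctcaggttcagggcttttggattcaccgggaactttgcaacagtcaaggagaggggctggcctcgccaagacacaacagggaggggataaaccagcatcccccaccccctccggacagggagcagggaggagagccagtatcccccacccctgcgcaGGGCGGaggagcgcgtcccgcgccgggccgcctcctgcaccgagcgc
Dpt, chr13:79656091-79656340, + strand: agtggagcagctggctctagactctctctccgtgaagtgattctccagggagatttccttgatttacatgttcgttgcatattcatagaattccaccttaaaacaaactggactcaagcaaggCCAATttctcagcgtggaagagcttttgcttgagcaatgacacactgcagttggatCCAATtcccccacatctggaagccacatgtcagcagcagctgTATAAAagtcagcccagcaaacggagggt
Gsn, chr3:39008682-39008931, + strand: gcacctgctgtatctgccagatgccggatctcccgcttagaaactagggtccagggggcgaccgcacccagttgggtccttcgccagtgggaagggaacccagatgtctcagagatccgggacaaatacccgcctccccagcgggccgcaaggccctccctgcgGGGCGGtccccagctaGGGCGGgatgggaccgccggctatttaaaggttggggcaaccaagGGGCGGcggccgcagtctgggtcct

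Motifs were searched on both strands in the same 250 bases of 33469 promoters. TATAAA, the TATA box, was found in Dpt among the 5 genes and in 12.9% of all promoters. CCAAT was found in Dpp4 and Dpt, and in 34.0% of all. GGGCGG, the GC box, was found in Cd34 and Gsn, and in 30.5% of all. TGANTCA, the site of AP-1 factors, and GGAATG, that of TEAD factors, occur in 6.34% and 12.1% of all promoters and were not among the letters of these 5 windows. No motif was shared by all of Cd34, Dpt and Gsn, and the matches do not overlap. The windows differ in base composition: 64.8% of the bases are G or C in Cd34 and 66.4% in Gsn, against 47.2% in Dpt. A match is a description of the letters and not evidence of a bound factor.

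No strain difference among the 8 genes passed the test. In the limma fit over all probe sets 0 of 8 passed an adjusted p of 0.05, where 0.0693% of 21659 tested probe sets passed. At an unadjusted p under 0.05 there was 1 of 8, Fap, beside 5.55% of all tested probe sets. The strains overlapped on all 8 genes, while they did not overlap on 12.1% of tested probe sets. The SHR mean was below the WKY mean for 6 of the 8 genes and for 52.0% of tested probe sets. The median difference, SHR minus WKY, was -0.13 over the 8 genes and -0.01 over all tested probe sets. What stood out was the spread among the SHR arrays: the median distance between the highest and the lowest SHR array was 1.69 over the 8 genes and 0.34 over all tested probe sets.

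Among the surface proteins, Cd34, a sialomucin of progenitors and endothelium (probe set 17683339), lay at log2 levels of 8.57, 7.11 and 6.87 on the SHR arrays and at 8.44, 8.0 and 6.88 on the WKY arrays. Each strain had 1 array above 8.4 and 1 just under 6.9, and their ranges covered each other almost fully. The difference was -0.26 ± 0.53 (SE; limma adjusted p = 0.962), with a 95% interval from -1.51 to 0.99.

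Scara5, a class A scavenger receptor that takes up ferritin (probe set 17699671), lay at 7.32, 6.44 and 5.44 on the SHR arrays and at 6.45, 6.40 and 6.59 on the WKY arrays. The 3 WKY arrays lay within 0.18 of each other, and SHR arrays lay above, among and below them. The means were 6.40 ± 0.94 (SD, n = 3) in SHR and 6.48 ± 0.10 in WKY, a difference of -0.08 (limma adjusted p = 0.985; 95% interval from -1.07 to 0.91).

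Ly6c, a small lipid-anchored antigen (probe set 17838221), had the widest range of the 8 genes, 2.76 over the 6 arrays. It lay at 6.19, 4.71 and 4.70 on the SHR arrays and at 6.02, 5.94 and 3.43 on the WKY arrays. WKY replicate 3 was lowest by more than 1 unit, and the other WKY arrays lay near SHR replicate 1. The difference was 0.07 ± 0.73 (SE; limma adjusted p = 0.991), and its interval, from -1.65 to 1.79, was the widest of the 8. Without WKY replicate 3 the difference was -0.78 (limma adjusted p = 0.809) and without SHR replicate 1 it was -0.42 (limma adjusted p = 0.994), so its sign depended on single arrays of both strains. WKY replicate 3 was also the array with the narrowest spread of values and an SD of 2.12 over its probe sets where the others had 2.22 to 2.27.

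Ly6c has related genes of the Ly6 family, and the files do not say whether its probes tell the copies apart. Ly6e was brighter than the array medians on all 6 arrays, at 7.48, 5.97 and 6.02 on the SHR arrays and at 7.27, 7.14 and 6.06 on the WKY arrays. Like Ly6c, it was high on replicate 1 of both strains and on WKY replicate 2 and low on the other 3 arrays. Other relatives were dim. Ly6cl1 lay between 0.34 and 0.69, Ly6al between 0.39 and 1.02 and Ly6i between 0.45 and 1.45, all below the array medians, and Ly6al1 lay between 3.07 and 4.30. On WKY replicate 3, where Ly6c was lowest, Ly6al1 was highest. So were the relatives Ly6h, Ly6d, Ly6g6d, Ly6g5b, Ly6g5c, Ly6g6c, Ly6i and Ly6m, but not Ly6e, Ly6g6f, Ly6g6e, Ly6cl1 or Ly6al. Ly6k was equally high there and on SHR replicate 2. That array had the highest array median, 2.52.

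The serine peptidases Dpp4, which cuts incretins and chemokines, and Fap, its close relative known from activated fibroblasts, lie near each other on chromosome 3 of GRCr8 with 1 protein-coding gene, Gcg, between them. Both were dim. Dpp4 (probe set 17772657) lay at 2.89, 1.10 and 1.82 on the SHR arrays and at 2.34, 2.43 and 1.58 on the WKY arrays. It rose above the highest array median on SHR replicate 1 alone, so its level is not shown to lie above background on the other 5 arrays. The difference of -0.18 ± 0.45 (SE; limma adjusted p = 0.966) is between measured levels and is not an estimate of a fold in RNA.

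Fap (probe set 17772693) lay at 3.37, 3.09 and 2.54 on the SHR arrays and at 2.66, 2.33 and 2.30 on the WKY arrays. SHR replicate 3 lay under WKY replicate 1, and otherwise the SHR arrays were higher. The measured difference of 0.57 ± 0.24 (SE) had an unadjusted p of 0.0441 and did not pass (limma adjusted p = 0.889). Its 95% interval, from 0.02 to 1.13, was the only one of the 8 without 0, and it is not adjusted for the number of genes. The WKY mean, 2.43 ± 0.20 (SD, n = 3), lay among the array medians, so no fold is given. Leaving out each array in turn gave differences from 0.39 to 0.80.

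Among the matrix and cytoskeletal proteins, Dpt encodes dermatopontin, which binds decorin and helps collagen fibrils to form (probe set 17681583). It lay at 9.81, 8.91 and 7.94 on the SHR arrays and at 9.15, 9.16 and 8.38 on the WKY arrays. The SHR arrays reached beyond the WKY arrays on both sides. The means of 8.88 and 8.90 differed by -0.01 ± 0.46 (SE; limma adjusted p = 0.999; 95% interval from -1.09 to 1.06).

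Gsn, which encodes gelsolin, a protein that severs and caps actin filaments, was the brightest of the 8 genes in WKY, with a mean of 10.39 ± 0.07 (SD, n = 3). Its probe set 17761675 read 10.80, 9.75 and 9.12 on the SHR arrays and 10.48, 10.36 and 10.34 on the WKY arrays. SHR replicates 2 and 3 lay below every WKY array and SHR replicate 1 above every one. The difference was -0.50 ± 0.38 (SE; limma adjusted p = 0.923; 95% interval from -1.40 to 0.39). It was -0.96 without SHR replicate 1 and -0.12 without SHR replicate 3, and passed in neither fit (limma adjusted p of 0.362 and 0.986).

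Mfap4, a glycoprotein of elastic microfibrils (probe set 17646600), had a different order of arrays. It lay at 9.30, 9.55 and 9.81 on the SHR arrays and at 10.05, 10.11 and 9.60 on the WKY arrays. SHR replicate 1, the highest SHR array for the other 7 genes, was the lowest array for Mfap4. Only WKY replicate 3 lay within the range of the SHR arrays. The difference was -0.37 ± 0.21 (SE; limma adjusted p = 0.923; 95% interval from -0.85 to 0.12). It kept its sign without each array in turn, from -0.53 (WKY replicate 3 left out) to -0.24 (SHR replicate 1 left out), and did not pass in any of these 6 fits.

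**Figure D1:**
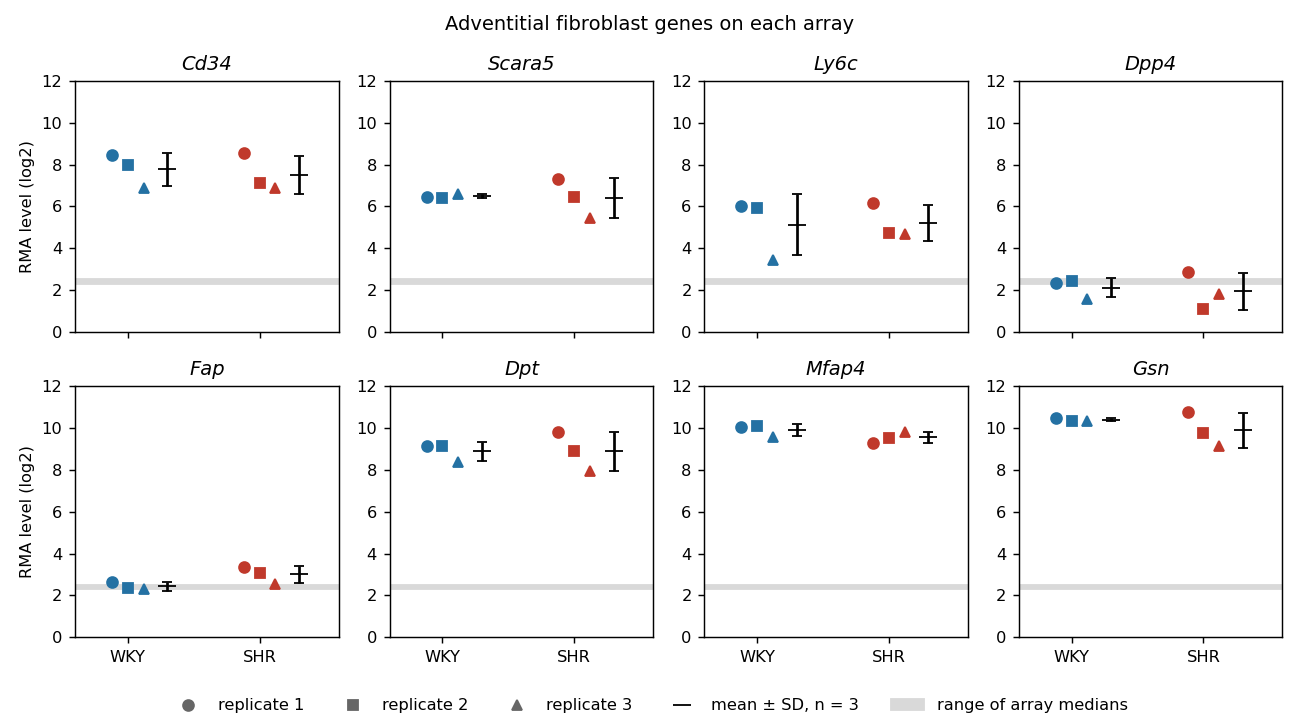
RMA level (log2) of the 8 measured genes on each array, with 1 panel a gene, 1 point an array and the marker shape giving the replicate number; bars are mean ± SD (n = 3) and the grey band spans the array medians, 2.29 to 2.52. The strains overlap in every panel, Dpp4 and Fap lie near the band, and SHR replicate 1 is the highest SHR array for all genes except Mfap4.

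The spread among SHR arrays was common to most of the 8 genes. The distance from the highest to the lowest SHR array was 1.88 for Scara5, 1.87 for Dpt, 1.78 for Dpp4, 1.70 for Cd34, 1.67 for Gsn and 1.49 for Ly6c, and it was 0.83 for Fap and 0.51 for Mfap4. Thus 6 of 8 genes, or 75%, had an SHR range over 1 unit, beside 7.10% of all tested probe sets. Among the 7 genes with a mean above the highest array median, 71.4% had such a range, beside 8.03% of tested probe sets above that level. The median WKY range was 0.65 over the 8 genes and 0.46 over all tested probe sets. Scara5 and Gsn were tight in WKY, with ranges of 0.18 and 0.13, whereas Ly6c and Cd34 ranged over 2.59 and 1.56. The SHR range was the wider for 6 of the 8 genes and for 39.1% of tested probe sets. These counts were chosen after the values were seen and carry no test.

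**Figure D2:**
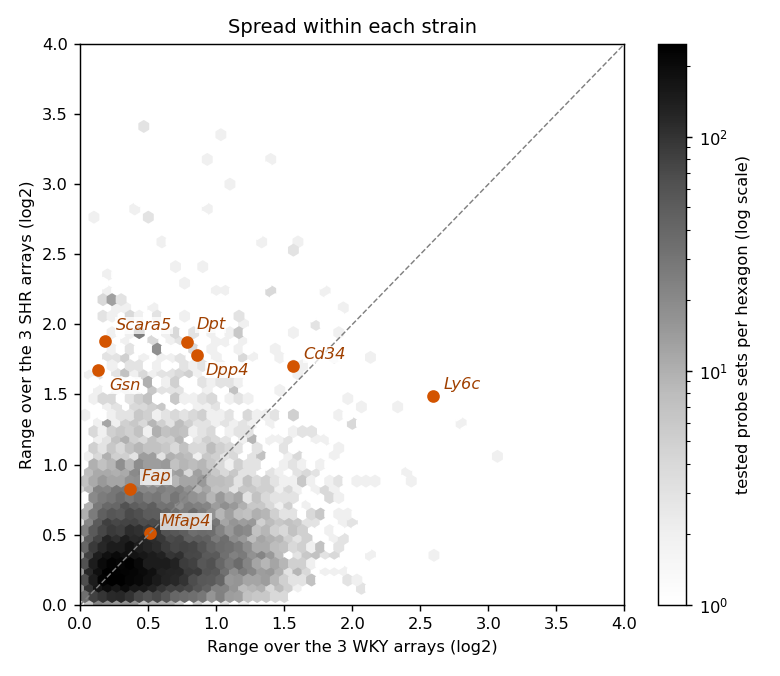
Range over the 3 SHR arrays against the range over the 3 WKY arrays (log2), for all 21659 tested probe sets as grey hexagons, darker with more probe sets on a log scale, and for the 8 genes as orange points; the dashed line marks equal ranges, and the axes end at 4, which leaves out 39 probe sets. Scara5, Gsn, Dpt and Dpp4 lie far above the line, Cd34 just above it, Mfap4 close to it and Ly6c below it.

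The SHR arrays also fell in the same order for most of the genes. SHR replicate 1 was the highest and SHR replicate 3 the lowest SHR array for 6 of the 8 genes, Cd34, Fap, Ly6c, Dpt, Scara5 and Gsn, beside 19.0% of all tested probe sets and 21.9% of those above the highest array median. For Ly6c the lower SHR arrays were nearly equal. With each gene set to its own mean over the 6 arrays, the median over the 8 genes was 0.87, -0.29 and -0.62 on the SHR arrays and 0.32, 0.31 and -0.44 on the WKY arrays. SHR replicate 1 thus stood highest and SHR replicate 3 lowest, with the WKY arrays in between.

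Markers of several other cell types showed the same order among the SHR arrays. White adipocyte markers, 8 of 8 measured, had mean levels of 7.67, 5.67 and 4.03 on the SHR arrays and of 7.37, 5.97 and 6.06 on the WKY arrays, and all 8 were highest on SHR replicate 1 and lowest on SHR replicate 3 among the SHR arrays. On the WKY arrays the adipocyte markers were lowest on replicate 2, where the 8 genes stood nearly as high as on replicate 1. Macrophage markers, 8 of 8 measured, spanned 3.75 to 6.17 in SHR and 4.54 to 5.48 in WKY, again with all 8 in that order. Endothelial markers, 6 of 8 measured, spanned 4.10 to 6.21 in SHR and 5.29 to 6.07 in WKY, with 5 of the 6 in that order. Their part in the level of Cd34, which endothelium also makes, was not tested. Brown adipocyte markers, 5 of 6 measured, spanned 3.0 to 5.07 in SHR and 4.27 to 6.07 in WKY, with 3 of 5 in that order, and Schwann cell markers, 4 of 6 measured, 3.09 to 4.74 and 3.49 to 3.98, with 2 of 4 in that order. Striated muscle markers, 6 of 8 measured, spanned 3.06 to 3.14 in SHR and 3.15 to 3.87 in WKY, with 1 of 6 in that order. Of the 6 general fibroblast markers 3 followed it, and of the 5 smooth muscle markers 0 did. The mean of the general fibroblast markers did follow it, at 9.36, 9.10 and 8.72 on the SHR arrays. All 6 mesothelial markers and all 7 measured lymphocyte markers of 8 had means below the highest array median, so neither cell type was shown to be present. Smooth muscle markers were lowest on SHR replicate 1, at 9.71, like Mfap4. In whole tissue, fewer cells of a type and less RNA per cell cannot be told apart.

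With the white adipocyte mean of each array as a covariate in the fit, 0 of 8 genes passed (limma adjusted p from 0.349 to 0.995), and 15 of all tested probe sets did. Gsn then differed by -0.23 ± 0.19 (SE) and Dpt by 0.31 ± 0.25, and Cd34, Scara5, Ly6c and Dpp4 by 0.09, 0.21, 0.40 and 0.02. Fap stood at 0.73 ± 0.16 (SE; limma adjusted p = 0.349) and Mfap4 at -0.43 ± 0.21 (SE; limma adjusted p = 0.779). In that fit a rise of 1 unit in the adipocyte mean went with 0.51 ± 0.14 (SE) for Cd34, 0.49 ± 0.27 for Ly6c, 0.47 ± 0.11 for Dpt, 0.43 ± 0.10 for Scara5, 0.40 ± 0.08 for Gsn, 0.30 ± 0.17 for Dpp4, 0.23 ± 0.07 for Fap and -0.10 ± 0.09 for Mfap4. The median of this slope over all tested probe sets was -0.01. Most of these genes had already been seen to share the order of the adipocyte markers on the SHR arrays. The macrophage, endothelial, general fibroblast, brown adipocyte and Schwann cell lists, whose means had that order too, were not fitted. Neither the part of fat nor that of the other marker lists in the results was tested.

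**Figure D3:**
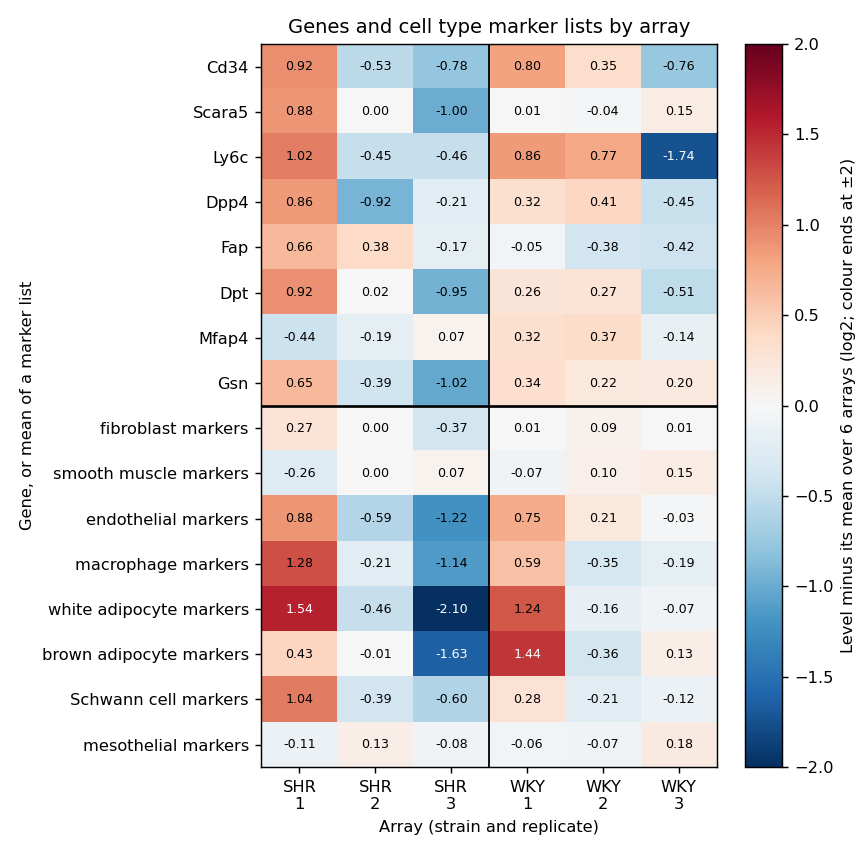
Level of each gene (rows above the line) and mean level of each marker list (rows below it) on each array, as the log2 difference from the row's own mean over the 6 arrays; red is above and blue below, and colours end at 2 units. SHR replicate 1 is red and SHR replicate 3 blue for most genes. The same holds for the fibroblast (faintly), endothelial, macrophage, Schwann cell and both adipocyte lists. Mfap4 and the smooth muscle list are lowest on SHR replicate 1.

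Other fibroblast genes were set beside the 8. Of 12 general fibroblast genes 0 passed and 0 had an unadjusted p under 0.05, with a median difference of 0.01. Their median SHR range was 0.27, beside 1.69 for the 8 genes, and 6 of 12 were highest on SHR replicate 1 and lowest on SHR replicate 3. The list was mixed: Pdgfra, Dcn and Fbln1 had SHR ranges of 1.75, 1.67 and 2.23 with that order of arrays. Those of Col1a1, Col1a2, Col3a1, Mmp2, Fstl1 and Vim were not above 0.20. The strains did not overlap on 1 of the 12, Mmp2, beside 12.1% of all tested probe sets. The 4 with the smallest p were Pcolce, which enhances the cleavage of procollagen (0.38), the gelatinase Mmp2 (0.27), the matrix protein Fbln1 (-0.76) and the intermediate filament gene Vim (0.13), with limma adjusted p of 0.923 for the first 3 and 0.932 for Vim. Fbln1 differed by -0.20 without SHR replicate 3 and by -1.32 without SHR replicate 1. Without WKY replicate 3 the differences of Pcolce, Mmp2 and Vim were 0.22, 0.13 and 0.02, and without SHR replicate 1 that of Pcolce was 0.21.

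Of 17 measured genes from a list of 18 further genes of adventitial and progenitor-like fibroblasts, 0 passed, and the median difference was -0.12. At an unadjusted p under 0.05, 1 was higher and 2 were lower, beside 5.55% of all tested probe sets in either direction. The strains did not overlap on 3 of the 17, Limch1, Pi16 and Has1, beside 12.1% of all tested probe sets. In this list 14 of 17 were highest on SHR replicate 1 and lowest on SHR replicate 3, and the median SHR range was 1.3. The list thus resembled the 8 genes in both counts, and the difference from the general fibroblast list was not tested. Limch1, which encodes a regulator of actomyosin, lay at 5.64, 5.33 and 5.43 on the SHR arrays and at 6.23, 6.10 and 6.05 on the WKY arrays, with no overlap, and did not pass (difference -0.67 ± 0.15, SE; limma adjusted p = 0.436). Pi16, a secreted marker of progenitor-like fibroblasts, lay at 7.02, 5.76 and 4.27 and at 7.53, 7.03 and 7.10, a difference of -1.54 ± 0.61 (SE; limma adjusted p = 0.882). Its difference was -0.83 without SHR replicate 3 and -2.21 without SHR replicate 1, and passed in neither fit. Has1, a hyaluronan synthase gene, differed by 0.87 (limma adjusted p = 0.875) with a WKY mean of 1.37, below every array median, and the surface glycoprotein gene Cd248 by -0.57 (limma adjusted p = 0.923). Has1 differed by 0.48 without SHR replicate 1, and Cd248 by -0.33 without SHR replicate 3.

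Of 8 measured genes from a list of 11 genes of activated fibroblasts, 0 passed, 4 were higher at an unadjusted p under 0.05 (beside 5.55% of all tested probe sets in either direction), and the median difference was 0.70. These were Col8a1 (1.74; limma adjusted p = 0.0848), Postn (1.46; 0.261), Timp1 (1.03; 0.277) and Fn1 (0.92; 0.464), which encode a short-chain collagen, periostin, an inhibitor of metalloproteinases and fibronectin. All 4 had no overlap between the strains, as did 12.1% of all tested probe sets, and 1 of the 8 genes of this list was highest on SHR replicate 1 and lowest on SHR replicate 3, beside 19.0% of all. Fap, which is known from activated fibroblasts as well, overlapped between the strains.

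Genes listed for the members' own families did not pass either, and none of those tested had an unadjusted p under 0.05. Of 7 tested genes listed as dipeptidyl peptidases or prolyl oligopeptidases 0 passed. Dpp3 had the smallest p, at a difference of 0.32 (limma adjusted p = 0.912). The list went by name, so common descent with Dpp4 and Fap is not implied for Dpp3. Of 4 procollagen proteinases and enhancers 0 passed, and Pcolce had the smallest p. Neither did any of 5 gelsolin relatives pass, where Capg, an actin-capping protein gene, differed by 0.26, nor any of 4 class A scavenger receptors, where Scara3 differed by 0.24 (limma adjusted p of 0.923 each). The sialomucin gene Podxl, a relative of Cd34 that is also made by endothelium, differed by -0.57 and Gpihbp1, an endothelial member of the Ly6 family, by -0.49 (limma adjusted p of 0.923 each). Without SHR replicate 3 these were -0.12 and -0.10, without SHR replicate 1 they were -1.06 and -0.87, and without WKY replicate 1 they were -0.31 and -0.16. Capg differed by 0.13 without SHR replicate 1 and by 0.45 without SHR replicate 3. Of 6 microfibril and elastic fibre genes 0 passed, and elastin, Eln, differed by -0.27 (limma adjusted p = 0.923), and by -0.16 without SHR replicate 1. The strains did not overlap on 2 of these 6 (Eln and Mfap2), beside 12.1% of all tested probe sets. They also did not overlap on 2 of the 7 listed dipeptidyl peptidases and prolyl oligopeptidases (Dpp3 and Dpp9) and 1 of the 4 scavenger receptors (Scara3). No tested gene of the other family lists was without overlap.

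Leaving out an array changed the sign of the difference for 5 of the 8 genes and not for Fap, Gsn and Mfap4. Cd34 turned to 0.07 without SHR replicate 3 and to 0.08 without WKY replicate 1, and Scara5 to 0.40 without SHR replicate 3. Dpt turned to 0.46 without SHR replicate 3 and to 0.12 without WKY replicate 1 or WKY replicate 2. Dpp4 turned to 0.23 without SHR replicate 2, and Ly6c to -0.42 without SHR replicate 1 and to -0.78 without WKY replicate 3. None of the 8 genes passed in any of these 6 fits. When SHR replicate 1 and WKY replicate 3 were both left out, as an earlier analysis of these data had done, 1 of the 8 passed: Ly6c was lower in SHR by 1.27 on the log2 scale (-1.27; limma adjusted p = 0.0499), with 2 arrays a strain, and Cd34 differed by -1.23 (limma adjusted p = 0.1). For Ly6c and Cd34 the arrays left out were the highest SHR array and the lowest WKY array. Leaving them out lowers the difference and narrows the spread by construction. In that fit 115 of all tested probe sets passed.

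**Figure D4:**
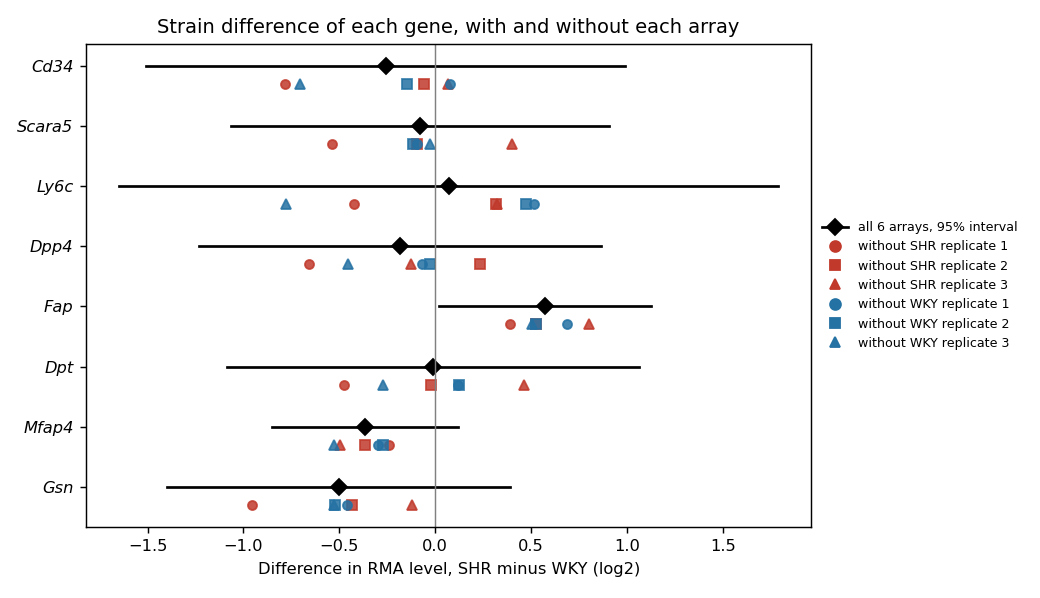
Difference in RMA level (log2), SHR minus WKY, of each gene: black diamonds with lines are the estimates from all 6 arrays with their 95% intervals, and coloured symbols are the estimates without 1 array. The interval of Fap alone lies above 0, from 0.02 to 1.13 before any adjustment, and the estimates of Cd34, Scara5, Ly6c, Dpp4 and Dpt fall on both sides of 0 when single arrays are left out.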

How the data were processed

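RNA of the thoracic aorta was measured on 6 Affymetrix arrays, 3 per strain, grouped by strain as titled. The values deposited by the authors are log2 levels per probe set; the submitters' processing notes name RMA and Affymetrix Expression Console 1.2.1. The genome build is not given in the sources used here. Of 28879 probe sets, 18511 have 1 gene symbol, and 18394 of these matched the RefSeq table of GRCr8 by Entrez identifier. Probe sets with a mean at or above the 25th percentile (1.17) were tested, 21659 in all, by lmFit and eBayes of limma (version 3.58.1, under R 4.3.3; strain as the only term, two-sided, Benjamini-Hochberg adjustment over all tested probe sets). All 8 measured members were tested. The procedure was tested on simulated data. A gene with several probe sets was represented by the brightest.

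The members and lists were chosen with earlier results of these data known. Named beside the members are, from each list, genes with the smallest unadjusted p, 4 from each fibroblast list and 1 from each family list, and Ly6e, which passed under 1 alternative; the genes nearest to the bright member with the largest range were ranked by correlation. Arrays have no sequencing depth, and their number limits the precision. Same-numbered arrays of the strains were not treated as pairs in the main fit. Their deviations from the strain means correlated at 0.35, -0.08 and 0.23 across probe sets. Those of unlike-numbered arrays correlated at -0.32 to 0.17. The check does not settle whether the arrays were paired.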

Additional observations from a re-analysis of the deposited data

How the results depend on the processing

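With 3 arrays a strain the precision is limited: the 95% interval of Ly6c, the widest, ran from -1.65 to 1.79, and that of Mfap4, the narrowest, from -0.85 to 0.12. The count of all probe sets passing was 15. It was 3 with a replicate block, which paired arrays by number although the check does not settle whether they were paired. It was 65 with array weights, 115 without both SHR replicate 1 and WKY replicate 3, and from 2 to 5 without 1 array. The replicate block changed no call among the 8 genes.

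The count of the 8 genes passing was 0 under all alternatives except without both SHR replicate 1 and WKY replicate 3, where it was 1 (Ly6c). The median difference of the 8 was -0.83 in that setting, -0.56 with array weights and from -0.51 to 0.19 without 1 array. The array weights were lowest for WKY replicate 3, at 0.22, and highest for SHR replicate 2, at 2.05. Among the 8 genes, signs turned with the white adipocyte covariate for Cd34 (0.087), Dpp4 (0.019), Dpt (0.31) and Scara5 (0.21), with median centring for Dpt (0.037), and for Ly6c with array weights (-0.85) and without both arrays (-1.27, the fit in which it passed). In that setting Cd34, Gsn, Dpp4, Dpt and Scara5 differed by -1.23, -0.98, -0.93, -0.73 and -0.49. For all of these but Scara5, and for Ly6c and Ly6e, the arrays left out were the highest SHR and the lowest WKY array. Their differences are lowered there by construction. Without 1 array the differences ranged from -0.78 to 0.076 for Cd34, from -0.66 to 0.23 for Dpp4, from -0.47 to 0.46 for Dpt, from -0.78 to 0.52 for Ly6c and from -0.54 to 0.40 for Scara5. Of the other lists 2 genes passed with array weights (Col8a1 and Postn), 1 with the covariate (Col8a1) and 3 without both arrays (Col8a1, Postn and Ly6e). Of 430 values of 27 genes under 16 alternatives, 408 kept sign and side of the threshold. Alternatives that changed only the probe-set filter, the variance model or the replicate block left each difference as it was. No sign could turn there. The mean of all probe sets of a gene could turn none of the 8 either, with 1 probe set each. Most adjusted p of the main fit lay far above the threshold. The count of 408 is thus no measure of robustness. The causes of the changes between alternatives were not tested.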

Other observations

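Ly6c was the bright gene of the list with the largest range over the arrays, 2.76, and 10390 named protein-coding genes above the highest array median were ranked by how closely their levels followed it over the same 6 arrays. The nearest were Tex2 (r = 0.999), Ap4b1, Tspan12, Sema6d and Terf1 (r = 0.99 each). This is a description over 6 arrays that share their preparation, with no test, and among so many genes close matches arise easily. Their own ranges were 0.54 for Tex2, 0.77 for Ap4b1, 1.54 for Tspan12, 1.43 for Sema6d and 0.30 for Terf1, and all 5 were lowest on WKY replicate 3.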
